A study of Mus musculus with 5 samples.

Results

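The occupancy of RNA polymerase II (RNAPII) was set against that of NELF-A, a subunit of the negative elongation factor NELF, over all 7718 RNAPII peaks and all 10782 NELF-A peaks of the deposited lists. These 18500 peaks were all the peaks of both lists, taken without selection from the 32456 peaks of the 4 lists of the series. Both targets were mapped by chromatin immunoprecipitation and sequencing (ChIP-seq) in primary mouse mammary epithelial cells. The cells came from virgin animals of 6 to 8 weeks and of mixed strain, and the labels give no genotype and no treatment of the animals or cells behind the 4 lists. The RNAPII library was made from 1 ng of DNA with 15 PCR cycles and a commercial antibody, and the NELF-A library from 0.2 ng with 18 cycles and an antibody made in house. The title of the RNAPII sample names 2 libraries, which share 1 list. Each target thus had 1 list without replicate lists, the sequencing depth behind the lists is unknown, and all intervals are 95% intervals that cover counting error alone. Lists of NELF-B, the partner subunit, and of RNA-DNA hybrids pulled down with an antibody (DRIP-seq) served as further readouts.

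RNAPII initiates transcription at promoters and, at many genes, halts shortly downstream of the start site. NELF binds this paused polymerase together with the factor DSIF and holds it there. Release needs the kinase P-TEFb, after which NELF leaves and the polymerase travels on through the gene body. NELF is therefore known as a mark of the paused polymerase near start sites and not of the elongating one.

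Positions are in mm9. RNAPII and NELF-A peaks start and end on a grid of 250 bp, and each carries 1 whole number without a stated unit, called the score. The score was used only within a list, and score per base is given here per 250 bp of peak. RNAPII peaks were 500 to 51750 bp wide with a median of 1000 bp, and their score per 250 bp ran from 51.8 to 319 with a median of 61.1. NELF-A peaks were 250 to 25000 bp wide with a median of 1000 bp, and their score per 250 bp ran from 4.12 to 192 with a median of 6.40. Width and score per 250 bp rose together in both lists (Spearman's rho across peaks 0.688 for RNAPII and 0.557 for NELF-A). The first value of each range lies at the floor of its list, so a site with less signal than that counts as having no peak.

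NELF-A was most often found on RNAPII peaks of intermediate width. Over all RNAPII peaks, 72.3% overlapped NELF-A by 1 bp or more. This share is the background for the shares of RNAPII peaks with NELF-A that follow. Among the 1604 peaks of 500 bp, the narrowest in the list, the share was 55.3% (52.9 to 57.7%). It was 71.5% at 750 bp, 79.0% at 1000 bp and 84.3% (81.7 to 86.6%) at 1250 bp, the width with the highest share among those with at least 100 peaks. From there it declined to 78.9% at 2000 bp and 67.0% (57.0 to 75.7%) at 3000 bp. Peaks were also put in 4 classes of width, called narrow (500 to 750 bp), intermediate (1000 to 1500 bp), broad (over 1500 and under 5000 bp) and long (5000 bp and more). The shares were 62.6% (60.9 to 64.4%) of narrow, 81.3% (79.8 to 82.7%) of intermediate, 74.0% (71.9 to 76.1%) of broad and 75.3% (70.9 to 79.2%) of long peaks. The odds of holding NELF-A were 1.82 times as high for long as for narrow peaks (1.44 to 2.30). The order was thus not a steady rise with width, and the intervals of broad and long peaks overlapped. By chromosome, the share ran from 68.8% on chromosome 15 (63.5 to 73.6%) to 81.5% on chromosome 8 (77.0 to 85.4%).

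Score per base separated RNAPII peaks with and without NELF-A more than width did. Peaks were ranked by score per 250 bp and divided at the quintiles into 5 classes. The share with NELF-A was 44.6% (42.2 to 47.0%) in the lowest class, 61.4% in class 2, 76.5% in class 3, 87.7% in class 4 and 92.8% (91.4 to 94.0%) in the highest. Since score per base rises with width, the upper and lower 50% by score per base were also compared among peaks of the same width. Among peaks of 500 bp, 70.0% of the upper and 41.6% of the lower group held NELF-A. At 1000 bp the shares were 93.3% and 64.8%, and at 2000 bp 96.6% and 61.3%. Pooled over all exact widths, the odds ratio was 5.75 (5.09 to 6.50). When peaks were also compared within the same class of distance to the nearest other RNAPII peak, it was 4.70 (4.10 to 5.39).

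At equal class of score per base, broad and long peaks held NELF-A less often than intermediate ones, least so in the highest class. In the lowest of the 5 score classes, narrow and intermediate peaks held NELF-A at 45.2% and 46.3%. Broad peaks in the same class held it at 13.6%, with 6 of 44 peaks (6.40 to 26.7%). In class 2 broad peaks held it at 19.7% (13.7 to 27.5%) and in class 3 at 38.0% (31.9 to 44.6%), against 84.3% for narrow peaks in class 3. Of the long peaks in class 3, 1 of 21 held NELF-A, and in class 4 the share was 49.3% (37.8 to 60.8%). Broad peaks in class 4 held it at 80.8% (77.2 to 84.0%), against 94.9% (93.2 to 96.2%) of intermediate ones. In the highest class the shares were 93.1% of broad and 85.8% of long peaks, against 97.6% of intermediate and 81.8% of narrow ones. The narrow value rests on 18 of 22 peaks (61.5 to 92.7%), and its interval includes that of long peaks. In classes 1 to 4, broad peaks thus held NELF-A less often than narrower ones. In the highest class they held it less often than intermediate ones, though most peaks of each width class held it.

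**Figure D1:**
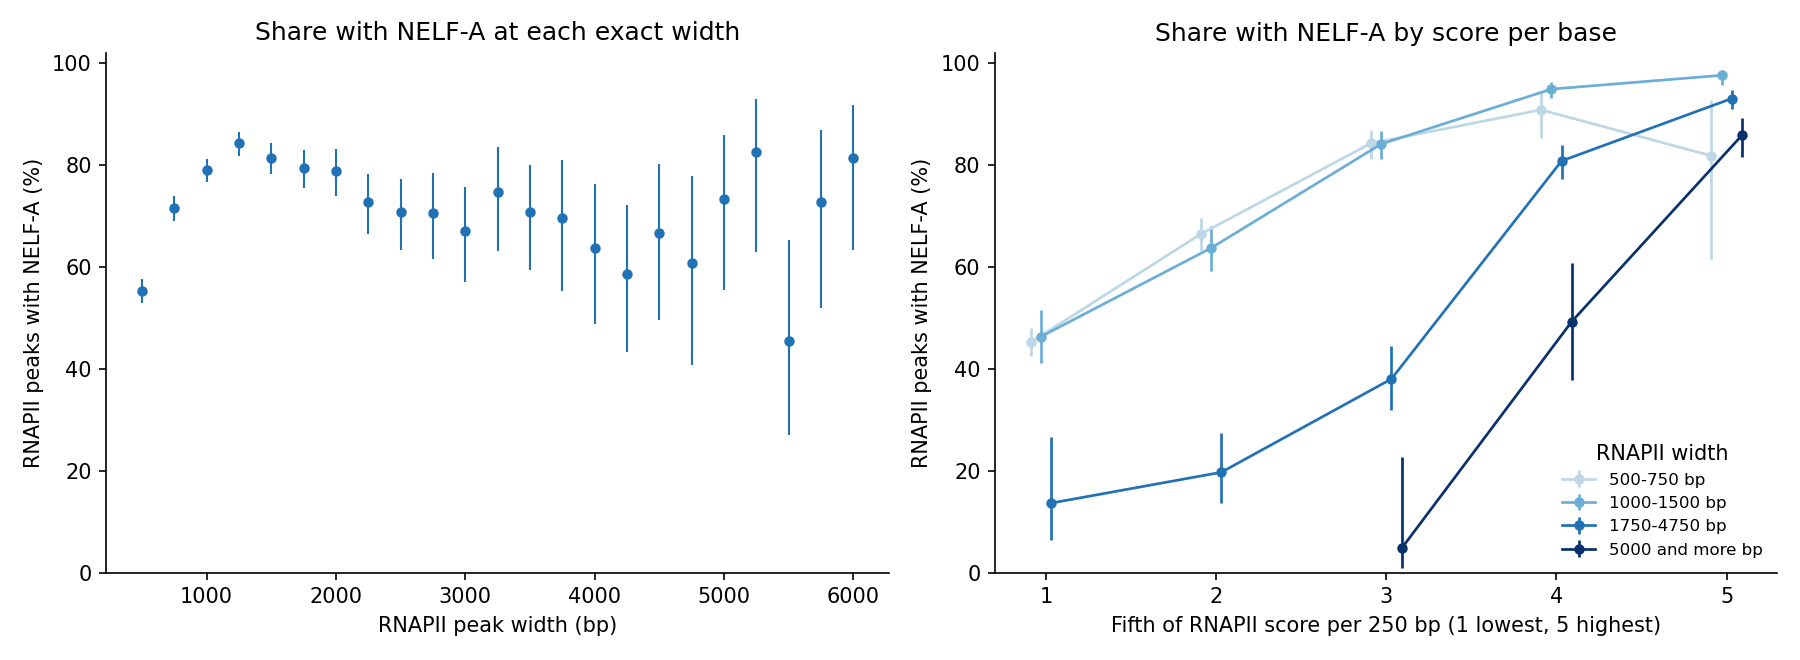
Left, the percentage of RNAPII peaks that overlap NELF-A (y axis) at each exact RNAPII width with at least 20 peaks (x axis, bp). Right, the same percentage in 5 classes of RNAPII score per 250 bp (x axis), with a line for each width class and points of at least 20 peaks. Bars are 95% Wilson intervals. The left panel peaks at 84.3% at 1250 bp, and in the right panel broad and long peaks start far below the narrower classes. At the right end all 4 classes lie between 81.8 and 97.6%, with narrow peaks (22 in number) lowest.

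RNAPII peaks that lay close to another RNAPII peak held NELF-A less often. The share was 35.2% (33.0 to 37.5%) where the gap to the next RNAPII peak was under 1 kb, 46.8% at 1 to 3 kb, 74.7% at 3 to 10 kb, 88.6% at 10 to 100 kb and 91.4% (90.0 to 92.7%) beyond 100 kb. This order held for narrow, intermediate and broad peaks: intermediate ones held NELF-A at 35.8% under 1 kb and at 96.0% beyond 100 kb. For long peaks the shares were 61.4% (54.7 to 67.7%) under 1 kb and 96.3% at 10 to 100 kb, with 89.3% of 28 peaks beyond that. The median score per 250 bp was 58.0 under 1 kb and 61.5 beyond 100 kb, with the highest value, 63.1, at 3 to 10 kb. The crowded peaks were wider, with a median of 1250 bp under 1 kb against 1000 bp beyond 100 kb. By width class the medians under 1 kb and beyond 100 kb were 54.0 and 57.0 for narrow and 57.3 and 64.75 for intermediate peaks. They were 70.8 and 79.3 for broad and 92.25 and 118 for long peaks. Seen from the other side, 77.8% (76.0 to 79.6%) of the 2135 RNAPII peaks without NELF-A had another RNAPII peak within 10 kb, against 27.0% (25.8 to 28.2%) of the 5583 peaks with NELF-A.

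Within groups of neighbouring RNAPII peaks, NELF-A sat mainly at the ends. RNAPII peaks were linked into chains where the gap between them was under 10 kb. This gave 4549 peaks that stood alone, 653 chains of 2 and 402 chains of 3 or more with up to 22 members. NELF-A was found on 89.6% (88.7 to 90.5%) of the peaks that stood alone. In chains of 3 or more it was found on 55.5% (52.0 to 58.9%) of the 804 end members and 15.9% (13.8 to 18.2%) of the 1059 inner members. With peaks linked at gaps under 25 kb instead, the inner share was 30.8% and the end share 65.6%. End members held NELF-A more often than inner members in each width class, at 30.0% against 7.39% for narrow and 78.0% against 38.6% for long peaks. The odds ratio pooled over width classes was 6.07 (4.84 to 7.60). Inner members also had a lower median score per 250 bp (55.5 against 66.7). Pooled within width classes and the 5 classes of score per 250 bp, the odds ratio was 4.22 (3.21 to 5.55). These score classes are wide, the highest running from 80.5 to 319, so scores can still differ within them.

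Counted as a unit, chains of different length held NELF-A at similar shares. At least 1 member overlapped NELF-A in 89.6% of the peaks that stood alone, 91.1% (88.7 to 93.1%) of chains of 2 and 89.8% (86.5 to 92.4%) of chains of 3 or more. The lower share of crowded peaks thus went with more RNAPII peaks per chain and not with more chains lacking NELF-A. A longer chain has more members that can hold NELF-A, and no expected share of chains was computed. Of the 402 chains of 3 or more, 186 held NELF-A at 1 end alone, 48 at both ends alone, 111 at an end and inside, 16 only inside and 41 not at all. Exactly 1 member held NELF-A in 200 of them. That member was an end of the chain in 93.0% (88.6 to 95.8%), where an even pick among members would give 49.3%. It had the highest score per base of the chain in 91.5% (86.8 to 94.6%), where an even pick would give 24.6%, and it was the widest in 65.5% (58.7 to 71.7%).

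Inside these end members, NELF-A lay on the side facing away from the rest of the chain. This was measured for broad and long end peaks with exactly 1 NELF-A peak centred inside but not exactly central. In chains of 3 or more the outward side held NELF-A in 201 of 218 peaks, or 92.2% (87.9 to 95.1%). In chains of 2, in which each member is an end, it was 74.3% (68.4 to 79.4%). For long peaks the shares were 95.5% (87.6 to 98.5%) and 81.0% (69.2 to 89.1%). The chain gave this orientation without use of NELF-A, and an even choice of side would give 50%.

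**Figure D2:**
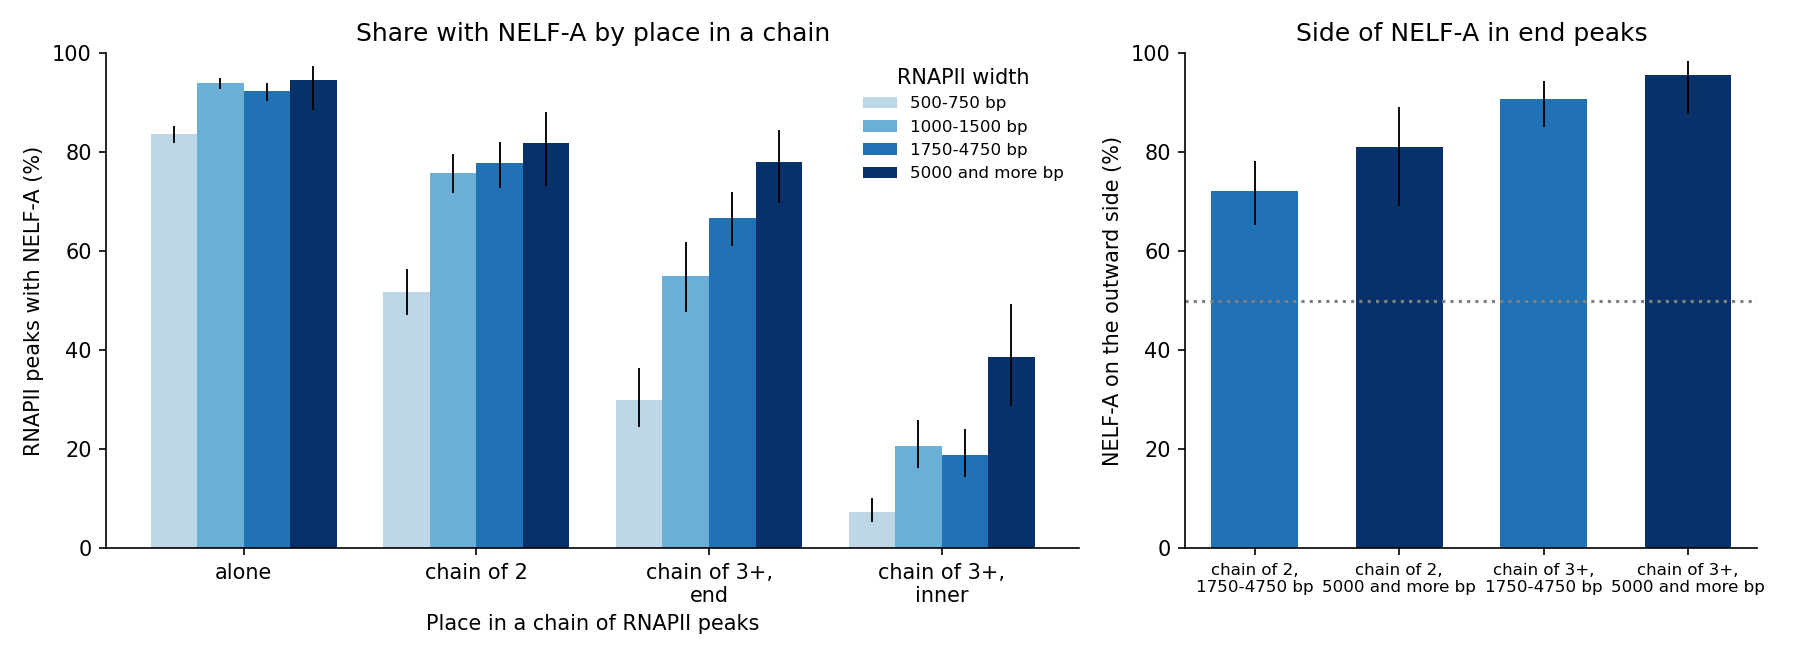
Left, the percentage of RNAPII peaks with NELF-A (y axis) for peaks alone, in chains of 2, and at the ends or inside chains of 3 or more (x axis), with a bar for each width class. Right, the percentage of end peaks with NELF-A on the side away from the chain (y axis), by chain length and peak width (x axis), with a dotted line at 50%. Bars carry 95% Wilson intervals. Inner members are lowest in each width class, and all 4 bars on the right stand above the dotted line.

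The place of NELF-A inside the RNAPII peak changed with RNAPII width. The lists give no summit, so the centre of a peak is the midpoint between its ends. The 5583 RNAPII peaks with NELF-A and the 5838 NELF-A peaks with RNAPII formed 5904 overlapping pairs. On narrow peaks the centres were a median of 0.5 grid steps apart (quartiles 0 and 1 step), and 91.4% (90.1 to 92.6%) lay within 250 bp. Centres as far apart as 500 bp, in the median, would still have given an overlap of 1 grid step there. On intermediate peaks the median was again 0.5 steps (0 and 1 step), and 87.6% lay within 250 bp. On broad peaks it was 1.5 steps (0.5 and 3 steps). On long peaks it was 11.5 steps, or 2875 bp, and 2.68% (1.54 to 4.63%) lay within 250 bp. Narrow RNAPII and NELF-A peaks were thus nearly concentric, and those in long RNAPII peaks were not.

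Measured from the edge instead of the centre, the median position of NELF-A was further inward in long than in narrow peaks. Narrow peaks cap this distance, since the middle of a peak of 500 or 750 bp is 250 or 375 bp from an edge. From 2000 bp to the widest peaks the median distance of NELF-A from the edge grew less than RNAPII width, and its quartiles spread apart. Of the pairs, 97.4% had the NELF-A centre inside the RNAPII peak. The median distance from that centre to the nearer RNAPII edge was 0.5 grid steps in peaks of 500 bp and 375 bp in peaks of 1000 bp. In peaks of 2000 bp it was 750 bp (quartiles 625 and 875 bp). It was then 875 bp (quartiles 625 and 1375 bp) in peaks of 5000 to 6750 bp. At 7000 to 9750 bp it was 1250 bp (750 and 1875 bp), and at 10000 to 14500 bp 1500 bp (875 and 2812 bp). At 15000 bp and more, where the median RNAPII width was 23500 bp, it was 1438 bp (875 and 3594 bp). As a share of width, the median fell from 37.5% at 2000 bp to 14.6% at 5000 to 6750 bp and 6.15% at 15000 bp and more, where centres at the middle would be at 50%.

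The outer 25% at either end of the RNAPII peak would hold 50% of NELF-A centres under an even spread. In broad peaks they held 27.6% (25.3 to 30.0%). In long peaks they held 78.8% (350 of 444, 74.8 to 82.4%). With outer zones of 20%, where an even spread gives 40%, the shares were 18.0% and 69.6%. The change came within the broad class: the share was 11.0% at 2000 bp, 38.0% at 2750 to 3000 bp, 46.0% at 3250 to 3750 bp and 58.3% (48.9 to 67.2%) from 4000 bp to the end of the class. The even spread treats NELF-A as a point. The median width of these NELF-A peaks was 1250 bp in both classes, which sets how near to an edge a centre can lie while the peak stays inside. The low share in broad peaks, and its rise with RNAPII width, are thus partly set by the widths. By themselves they show no preference of NELF-A for the inner part.

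**Figure D3:**
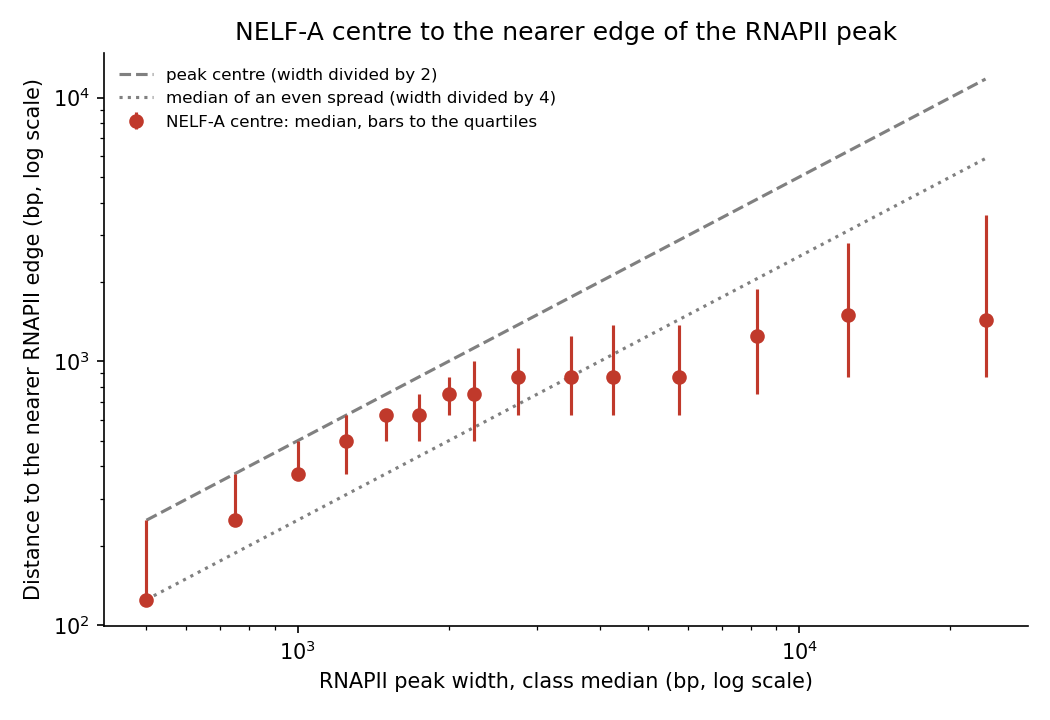
Distance from the NELF-A centre to the nearer RNAPII edge (y axis, bp, log scale) against RNAPII width (x axis, bp, log scale) for NELF-A peaks centred in an RNAPII peak. Points are medians and bars reach to the quartiles, the dashed line marks the RNAPII centre and the dotted line the median of an even spread. Points lie on or above the dotted line up to 3500 bp, and for all wider classes they lie below it, between 875 and 1500 bp.

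Ends of NELF-A and RNAPII peaks often coincided on the near side. Among long RNAPII peaks with 1 NELF-A peak centred inside, RNAPII reached past the end of NELF-A by a median of 0 bp (quartiles 0 and 250 bp) on the nearer side and by 5875 bp (4250 and 9750 bp) on the other. On the nearer side both ends lay within 250 bp of each other in 75.0% (156 of 208, 68.7 to 80.4%), and on the far side in 2 of 208. In broad peaks the medians were 0 bp and 750 bp. In narrow peaks NELF-A passed the RNAPII end by a median of 250 bp on the nearer side and ended with it on the other.

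NELF-A coverage rose sharply at the RNAPII edge and was highest at 625 bp inside in broad and long peaks. Both ends of each RNAPII peak were pooled, peaks without NELF-A included. In long peaks, NELF-A covered 2.32% of positions 375 bp outside the edge, 20.9% in the first step inside it and 33.0% at 625 bp inside. It fell to 14.7% at 2125 bp and 5.47% at 5125 bp. In broad peaks the value at 625 bp was 53.3%. Both ends count here, so an end without NELF-A lowers these values.

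**Figure D4:**
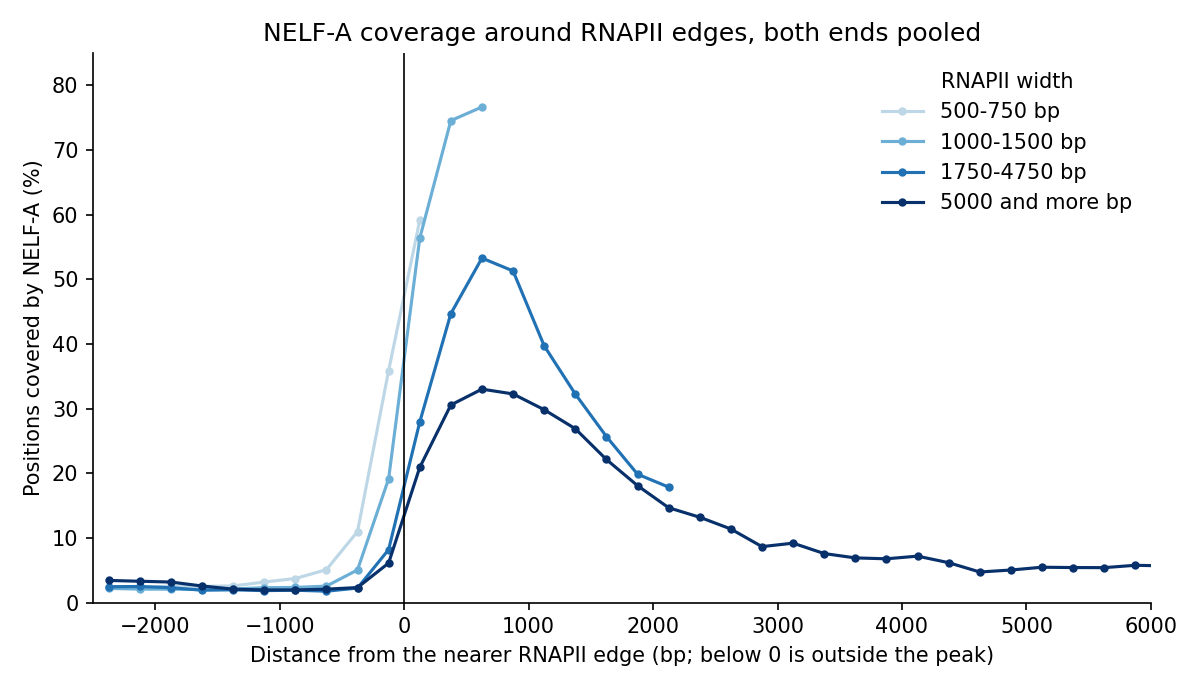
Percentage of positions covered by a NELF-A peak (y axis) against distance from the nearer RNAPII edge in steps of 250 bp (x axis, bp, negative outside the peak), for 4 classes of RNAPII width. Each step inside a peak uses the peaks wide enough to hold it at both ends. Outside the peak, coverage is 35.9% in the step next to the edge of narrow peaks and 6.11% next to that of long ones, and it is under 5% in all classes from 875 bp on. Inside, the lines of broad and long peaks are highest at 625 bp.

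The stretch under NELF-A grew less than RNAPII width, so the covered fraction fell as RNAPII widened. Among RNAPII peaks with NELF-A, the median covered stretch was 500 bp in narrow, 1000 bp in intermediate and 1500 bp in broad peaks. In long peaks its quartiles were 1250 and 2500 bp. The median fraction covered was 100% in narrow peaks, of which 88.6% were covered in full. It was 83.3% (quartiles 75.0 and 100%) in intermediate, 62.5% (45.2 and 77.8%) in broad and 18.8% (11.6 and 28.1%) in long peaks. Over all bases in RNAPII peaks, 42.3% lay under NELF-A. Seen from NELF-A, 54.5% (53.2 to 55.7%) of the NELF-A peaks on RNAPII lay within RNAPII in full.

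Which peak lay inside the other followed RNAPII width, an order largely set by the width classes themselves. The median NELF-A peak was 1000 bp wide on narrow and 1250 bp wide on long RNAPII peaks. A narrow RNAPII peak cannot contain a NELF-A peak of that width, and a long one cannot lie inside it. Narrow RNAPII peaks lay inside a longer NELF-A peak in 74.3% (72.3 to 76.2%) of pairs and NELF-A inside RNAPII in 3.10%. On long peaks, NELF-A lay inside RNAPII in 89.5% (86.3 to 92.0%) and RNAPII inside NELF-A in 2 of 447 pairs. Identical ends were most frequent on intermediate peaks, with 20.6% (19.0 to 22.3%) of pairs. Over all pairs, 40.6% had NELF-A inside, 32.6% had RNAPII inside, 12.9% had identical ends and 14.0% were staggered. Both lists also have a minimum width and a floor on score, which bear on these shares.

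An RNAPII peak typically held 1 NELF-A peak. Of all RNAPII peaks, 2135 held none, 5307 held 1, 245 held 2, 21 held 3, 8 held 4 and 2 held 6. Among those with NELF-A, 4.94% (4.41 to 5.54%) held 2 or more, and 1.91% did so when each list was restricted to its upper 50% by score. This share was 0.327% for narrow, 1.40% for intermediate, 11.5% (9.81 to 13.4%) for broad and 32.1% (27.2 to 37.5%) for long peaks. Relative to length the order was the reverse: for 10 kb of RNAPII peak there were 10.2 NELF-A peaks in the narrow class, 6.89 in the intermediate, 3.33 in the broad and 1.06 in the long class. The median NELF-A peak, of 1000 bp, is wider than a narrow RNAPII peak, so this order is largely set by the widths alone. In the reverse direction 5777 NELF-A peaks lay on 1 RNAPII peak and 61 on 2 or more, and in 40 of these 61 some of the RNAPII peaks touched each other without a gap.

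**Figure D5:**
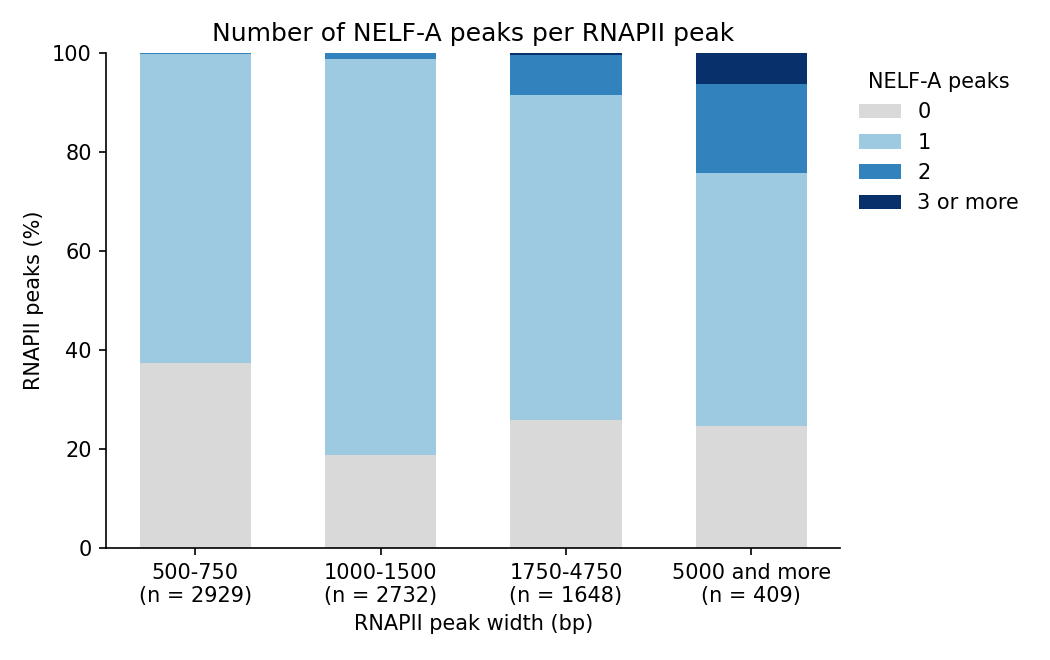
Percentage of RNAPII peaks (y axis) that hold 0, 1, 2, or 3 or more NELF-A peaks, in 4 classes of RNAPII width (x axis, bp, with the number of peaks). The segments for 2 or more are barely visible for narrow peaks and tallest for long peaks, where 32.1% of peaks with NELF-A hold several.

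Where 2 NELF-A peaks shared an RNAPII peak they were mostly close together and unequal. In the 245 such RNAPII peaks, the gap between the 2 NELF-A peaks had a median of 250 bp (quartiles 0 and 750 bp), and in 35.9% (30.2 to 42.1%) they touched. The higher of both scores was a median of 2.80 times the lower. They lay in opposite sides of the RNAPII peak in 86.7% (79.9 to 91.4%) of broad peaks. These had a median width of 2500 bp, which leaves little room for 2 separate NELF-A peaks on the same side. In long peaks, of median width 10000 bp, the share in opposite sides was 35.6% (25.6 to 47.1%), so most of these pairs sat together on the same side. In long RNAPII peaks with several NELF-A peaks, the one with the highest score was in the outer 25% in 87.6% (79.6 to 92.8%) of 97, and the others in 56.2% (47.8 to 64.2%) of 137. The others had a median score of 15 against 71, and no NELF-A peak of the list scores below 9.

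The RNAPII peaks with the most NELF-A peaks were 2 that held 6 each, followed by 8 that held 4, of which the one with the highest RNAPII score is named here. All 3 peaks named were long. The one on chromosome 3 from 95461501 to 95486500, of 25000 bp with RNAPII score 17651, held 6. Its NELF-A peak of score 136 was centred 1500 bp from the lower edge, and the other 5, spread over the interior, scored 9 to 18. On chromosome 7 from 29155501 to 29169250 an RNAPII peak of 13750 bp also held 6 NELF-A peaks, and here 2 of them had similar scores of 150 and 153, centred 5000 bp and 2250 bp from the upper edge. The third, on chromosome 19 from 5814251 to 5850750, had the highest RNAPII score of the list, 42660, and held 4 NELF-A peaks. The strongest of these scored 188 and was centred 4625 bp from the upper edge of the 36500 bp peak. All 3 regions also held NELF-B and DRIP peaks.

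The 3 widest RNAPII peaks with exactly 1 NELF-A peak showed it close to an end. On chromosome 11 from 49607251 to 49659000 the NELF-A peak, of score 21, was centred 625 bp from the lower edge of a 51750 bp RNAPII peak, or 1.21% of its width. On chromosome 10 from 117240251 to 117283750 the NELF-A peak of score 103 was centred 875 bp from the upper edge of 43500 bp and shared that edge exactly. On chromosome 3 from 65331251 to 65364750 it scored 96 and was centred 1000 bp from the lower edge of 33500 bp. In each case the rest of the RNAPII peak held no NELF-A.

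Some strong RNAPII peaks held no NELF-A. The highest by score lay on chromosome 2 from 51893251 to 51915250, of 22000 bp with score 20881, which ranked 6 in the RNAPII list, and the nearest NELF-A peak was 364750 bp away. The next, on chromosome 15 from 101820751 to 101835250 with score 9208, was 68500 bp from NELF-A. Both overlapped DRIP. The third, on chromosome 2 from 155970751 to 155997250 with score 8961, touched another RNAPII peak and had a NELF-A peak 250 bp away. Over all 2135 RNAPII peaks without NELF-A, the nearest NELF-A peak was within 1 kb in 6.89%, within 10 kb in 47.0% (44.9 to 49.1%) and a median of 11000 bp away.

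From the side of NELF-A, 54.1% of peaks overlapped RNAPII, and the share rose with NELF-A score per base and width. In 5 classes of NELF-A score per 250 bp it was 22.6% (21.0 to 24.4%), 28.5%, 51.7%, 75.5% and 93.5% (92.3 to 94.4%). By NELF-A width it was 20.9% at 500 bp, 63.3% at 1000 bp, 86.5% at 1500 bp and 97.6% (94.0 to 99.1%) over 2000 bp. NELF-A peaks outside RNAPII were mostly far from it: 14.8% (13.9 to 15.9%) lay within 10 kb of an RNAPII peak, and the median gap was 54375 bp. With the upper 50% of each list by score, 6.28% lay within 10 kb. The strongest scored 172, at chr17:85489251-85490750, and was 131250 bp from RNAPII. The next scored 140, at chr11:58751751-58753000, with a gap of 14750 bp, and the third scored 121, at chr2:72313501-72314750, with a gap of 501750 bp. NELF-B overlapped the first and second of them.

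The strength of both signals was related across shared sites. Over 5188 pairs in which each peak had only the other as partner, Spearman's rho was 0.479 for score per 250 bp, 0.530 for score and 0.435 for width. These are descriptions across sites, which share their library and whose scores also follow width. The median NELF-A score rose from 26 (quartiles 18 and 36) on RNAPII peaks of the lowest class of score per base to 64 (44 and 85) on the highest. The interquartile ranges of these 2 classes did not overlap, while those of neighbouring classes did. Outside 17 regions of extra-high signal, where at least 3 lists have one of their strongest peaks, the NELF-A peak with the highest score, 316, lay on chromosome 12 from 92826251 to 92829750 and shared its upper end with an RNAPII peak of 3750 bp that began 250 bp lower. The next, with 298, lay on chromosome 8 from 11555001 to 11558750. It overlapped 2 RNAPII peaks separated by 250 bp and covered only the first of them in full. The third, with 290, lay on chromosome 17 from 34255501 to 34259000, centred 2750 bp from the upper edge of an RNAPII peak of 14000 bp.

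NELF-B and DRIP, which had no part in defining the pairs, were compared by where NELF-A sat. Over all RNAPII peaks, 38.2% overlapped NELF-B and 22.2% overlapped DRIP. NELF-B was on 52.6% (51.3 to 53.9%) of RNAPII peaks with NELF-A and on 0.609% (13 of 2135) of those without. Among broad RNAPII peaks with 1 NELF-A peak centred inside, NELF-B was present in 54.1% (47.8 to 60.2%) where NELF-A was in the outer 25% and in 71.9% (68.8 to 74.9%) where it was in the inner 50%. Among long peaks the shares were 72.7% of 187 and 61.9% (40.9 to 79.3%) of 21. The pooled odds ratio, outer against inner, was 0.518 (0.390 to 0.686), although the shares of long peaks differed in the other direction. It was 0.763 (0.570 to 1.02) with the upper 50% of each list by score, an interval that includes 1. NELF-A scores differed alongside: in broad peaks their median was 39.5 in the outer and 63 in the inner position. At equal class of NELF-A score the odds ratio for NELF-B became 1.22 (0.831 to 1.79), and this interval spans 1.

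The comparison of DRIP by where NELF-A sat gave different values under different settings. Among broad peaks, 47.9% (41.8 to 54.2%) of RNAPII peaks with NELF-A in the outer position and 47.3% (44.0 to 50.8%) of those with it in the inner position overlapped DRIP. The median RNAPII width of these 2 groups was 2750 bp and 2000 bp. The pooled odds ratio was 1.04 (0.791 to 1.38). It was 0.753 (0.556 to 1.02) at exactly equal width, and both intervals include 1. It was 1.60 (1.19 to 2.14) when each list was restricted to its upper 50% by score. That value was pooled over width classes and was not computed at exactly equal width. With the number of NELF-A peaks, the other readouts differed by width. Among broad peaks, NELF-B overlapped 67.9% (65.0 to 70.6%) of RNAPII peaks with 1 NELF-A peak and 49.3% (41.1 to 57.5%) of those with 2 or more. Among long peaks it overlapped 71.8% (65.3 to 77.4%) and 85.9% (77.7 to 91.4%). DRIP overlapped 47.6% and 51.4% of broad and 80.9% and 84.8% of long peaks, with overlapping intervals in both classes.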

How the data were processed

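The ChIP-seq peaks of RNAPII and NELF-A, with those of NELF-B and DRIP, were used as deposited. The submitters' processing notes name BWA and the build mm9. The peak caller, its threshold, any input control and the way of combining libraries: not given in the sources used here. The authors' score, 1 whole number per peak in the deposited lists, has no stated unit. Sequencing depth is unknown, and p-values were not computed, since peaks are not replicates.

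Peaks were shared at an overlap of 1 bp or more, computed with Python 3.11.15, pandas 2.3.3 and SciPy 1.17.1. Shares carry Wilson intervals and odds ratios carry Woolf or Mantel-Haenszel intervals, at 95%. Score classes were divided at quintiles with ties kept together. Chains linked RNAPII peaks with gaps under 10 kb. The functions were tested on simulated data with known positions. Peaks named in the text are the first 3 by number of NELF-A peaks, by width with 1 NELF-A peak, and by score for RNAPII without NELF-A and for NELF-A with RNAPII (outside regions of extra-high signal) or without it. Ties went to the higher score. A region of extra-high signal, of which there were 17, holds for 3 or more lists a peak ranked in the upper 1% on score per base, or among the first 10 on score.

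Members, classes and comparisons were chosen with earlier results of these data known. The side of NELF-A in end peaks, the distance between peak ends, the place of the highest-score NELF-A peak and the comparisons at equal NELF-A score were added after seeing the values. So were the odds ratios at exactly equal width for DRIP, within score classes for chain ends, and within distance classes for score per base. Chains counted as a unit, and the traits of their single member with NELF-A, were not among the planned results. Genes are not named, because the gene table at hand is in another build and coordinates were not converted. The RNase H sample was not analysed here.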

Additional observations from a re-analysis of the deposited data

How the results depend on the processing

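Leaving out the X chromosome or the regions of extra-high signal moved none of 31 results beyond its interval, nor did requiring 50% of the shorter peak for the 16 results tried. Joining touching peaks moved 4 of 31: NELF-A on 74.56% of all RNAPII peaks, 65.55% of narrow ones and 47.43% in the lowest score class, and 2 or more NELF-A peaks in 3.658% of holders. Allowing a gap of 1000 bp gave 74.24% of all, 65.76% of narrow, 82.69% of intermediate, 48.82% in the lowest score class, 41.9% with a neighbour under 1 kb, and 26.37% of NELF-A peaks in their lowest score class. With every peak set to 500 bp the share of all RNAPII peaks was 60.9%. Using the upper 50% of each list by score moved most results. RNAPII shares were 70.29% of all peaks, 76.44% of intermediate, 64.75% of broad and 65.28% of long peaks, 33.46% and 86.82% in the lowest and highest score class, and 85.99% beyond 100 kb. The odds ratio by score per base was then 6.54, several NELF-A peaks were held by 1.913%, outer zones held 20.95% in broad and 87.17% in long peaks, NELF-A lay inside in 58.29% and on end members in 48.61%. For NELF-A, 24.87% and 82.77% of the lowest and highest score class lay on RNAPII and 6.279% of the rest within 10 kb. The odds ratio by place was 0.7626 (0.570 to 1.02) for NELF-B, which then included no difference, and 1.595 for DRIP, which then excluded it. Only 6 narrow peaks were left there, so that class gave no value. Linking at 5 kb gave 48.79% of end and 11.56% of inner members, and at 25 kb 65.62%, 30.78% and an odds ratio of 4.271. Over end peaks of all chains of 2 or more, linking at 25 kb put 77.22% on the outward side, against 82.79% at 10 kb. Outer zones of 20%, where an even spread puts 40%, held 17.99% in broad and 69.59% in long peaks. Among comparisons chosen after seeing the data, exact width gave 0.7531 for DRIP, score per base with width gave 4.221 for ends against inner members, distance with width gave 4.7 for score per base, and NELF-A score with width turned the odds ratio of NELF-B to 1.218. The cause of these changes was not tested. No paired analysis was possible because each target had 1 list, and for the same reason no replicate could be left out. Depth limits what the lists can hold, since a site below the floor of a list counts as empty.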
